A study of Mus musculus with 18 samples.

Results

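The genes described here encode the proteins of the cytosolic ribosome, and were followed through RNA of the mouse optic nerve head. They were chosen by symbol alone: every protein-coding gene named Rpl or Rps followed by a digit, together with Rplp0, Rplp1, Rplp2 and Rpsa, leaving out the Rps6k kinases and names that contain "-ps". The rule gave 86 of 55416 gene identifiers in the deposited tables, and 21928 of those identifiers are protein-coding. By known role, 43 of the 86 members belong to the large subunit, 31 to the small subunit and 3 to the P stalk, and 8 are paralogs of subunit genes. The remaining member, Rps19bp1, is a binding partner of Rps19 and not a ribosomal protein, so the label holds for all members but this gene. The ribosomal protein genes Rack1 and Fau lie outside the rule because of their names.

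As background, a ribosome carries a single copy of nearly every ribosomal protein, so the proteins are made in matched amounts, and surplus copies are degraded. Their mRNAs are short and among the most abundant of a growing cell. Most of them begin with a run of the pyrimidines C and T, the terminal oligopyrimidine (TOP) motif, through which the kinase complex mTORC1 and the RNA-binding protein LARP1 control their translation.

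The optic nerve head, through which ganglion cell axons of the retina pass to the brain, is a site of axon damage in glaucoma. Tissue was cut from sections by laser capture microdissection, and 18 libraries were made in 4 groups. At 22 months of age 3 libraries were labelled B6.EDA+/+ and 5 were labelled C57BL/6J, the control strain. At 12 months 5 libraries carried each label. As background, EDA+/+ mice were engineered to include the extra domain A (EDA) exon in all fibronectin transcripts in every tissue. The labels give no sex, litter or batch, and do not tie libraries to single animals or to pools. The p-values therefore reflect variation among these 18 libraries, which may be technical. Bulk tissue was measured, so fewer cells of a type and less RNA per cell cannot be told apart.

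Depth was 13097498 to 18488733 expected counts per library. The number of genes at 10 or more reads was 9703 to 13048. Of the fibronectin isoforms that span the EDA exon, those that hold it made up 0% to 58.5% of the abundance in EDA-labelled libraries and 0% to 100% in control-labelled ones, with medians of 4.1% and 4.4%. These shares are estimates over 8 isoforms, from 66.9 to 1485 reads per library, and not counts of reads on the exon. They did not separate the labels, and are too unsteady to check or to question them. Libraries are named below by label only, as EDA-labelled or control-labelled. The 10 astrocyte markers took 0.907% to 4.16% of reads, and 9 of the 10 had 10 or more reads in every library. A gene identifier with no symbol took 3.26% to 32.8% of reads. Among 4311 genes with a median of at least 20 CPM (reads scaled to library total), the 12-month EDA-labelled replicate 4, whose title number is 20403, had 741 genes more than 4-fold below the lowest value in any other library. The next library by this count, the 22-month EDA-labelled replicate 3, had 121. Most results that rest on library 20403 are given with and without it.

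The stretches around the annotated starts of 8 members are shown first, because this family is known for pyrimidine runs at its starts. They are the 4 members of highest level and 4 that reached 10 reads in a single library. Each is 50 bases of the sense strand, 40 before the RefSeq start and 10 from it, in build GRCm38.p6. Capitals mark the longest unbroken run of C and T.

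Rpl38: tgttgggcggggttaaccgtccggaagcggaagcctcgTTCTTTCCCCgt

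Rpl13: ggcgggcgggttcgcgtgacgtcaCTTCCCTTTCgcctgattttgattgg

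Rpl23: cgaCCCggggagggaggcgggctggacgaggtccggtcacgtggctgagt

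Rpl4: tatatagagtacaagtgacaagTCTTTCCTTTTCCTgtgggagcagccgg

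Rpl34: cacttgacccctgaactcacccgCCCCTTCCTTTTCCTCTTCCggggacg

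Rps7: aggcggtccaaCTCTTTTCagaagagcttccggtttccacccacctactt

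Rpl11: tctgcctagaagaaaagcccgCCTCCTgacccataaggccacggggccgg

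Rps12: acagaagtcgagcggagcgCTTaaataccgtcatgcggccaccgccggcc

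These windows lie at chr11:114668540-114668589 on the plus strand (Rpl38), chr8:123102310-123102359 on the plus strand (Rpl13), chr11:97782430-97782479 on the minus strand (Rpl23) and chr9:64173347-64173396 on the plus strand (Rpl4). The others lie on the minus strand, at chr3:130730328-130730377 (Rpl34), chr12:28635944-28635993 (Rps7), chr4:136053384-136053433 (Rpl11) and chr10:23787200-23787249 (Rps12). Both sets held long and short runs. The run was 10 bases in Rpl38 and in Rpl13, 14 in Rpl4 and 3 in Rpl23. Among the other 4 it was 20 bases in Rpl34, 8 in Rps7, 6 in Rpl11 and 3 in Rps12. Rpl23, Rpl11 and Rps12 thus held no run of 8 bases or more here.

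The RefSeq table matched 66 members, of which 57 are subunit or stalk genes. A run of at least 8 bases made only of C and T lay in this window in 31 of these 57 genes (54.4%), against 23.9% of all 27025 genes of the table. On the opposite strand the same search found 15.8% of the subunit genes and 23.9% of all genes. Split by median level, 15 of the 29 higher genes and 16 of the 28 lower genes held a run. The run therefore marked the family on the sense strand and was about as frequent in its high as in its low members. A run in this window is a match of letters and not a mapped transcript start.

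Levels are compared between genes in TPM, the scaled number of transcripts, which corrects for transcript length. A few members carried most of the family's RNA. The median over libraries was above 100 TPM for 4 members, between 10 and 100 TPM for 21 and below 10 TPM for 61. The median of these medians was 2.85 TPM, against 0.465 TPM over all protein-coding genes. At 10 or more reads, 11 members were found in all 18 libraries and 25 in at least 17. Conversely, 15 were found in at most 1 library, and 7 in none.

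**Figure D1:**
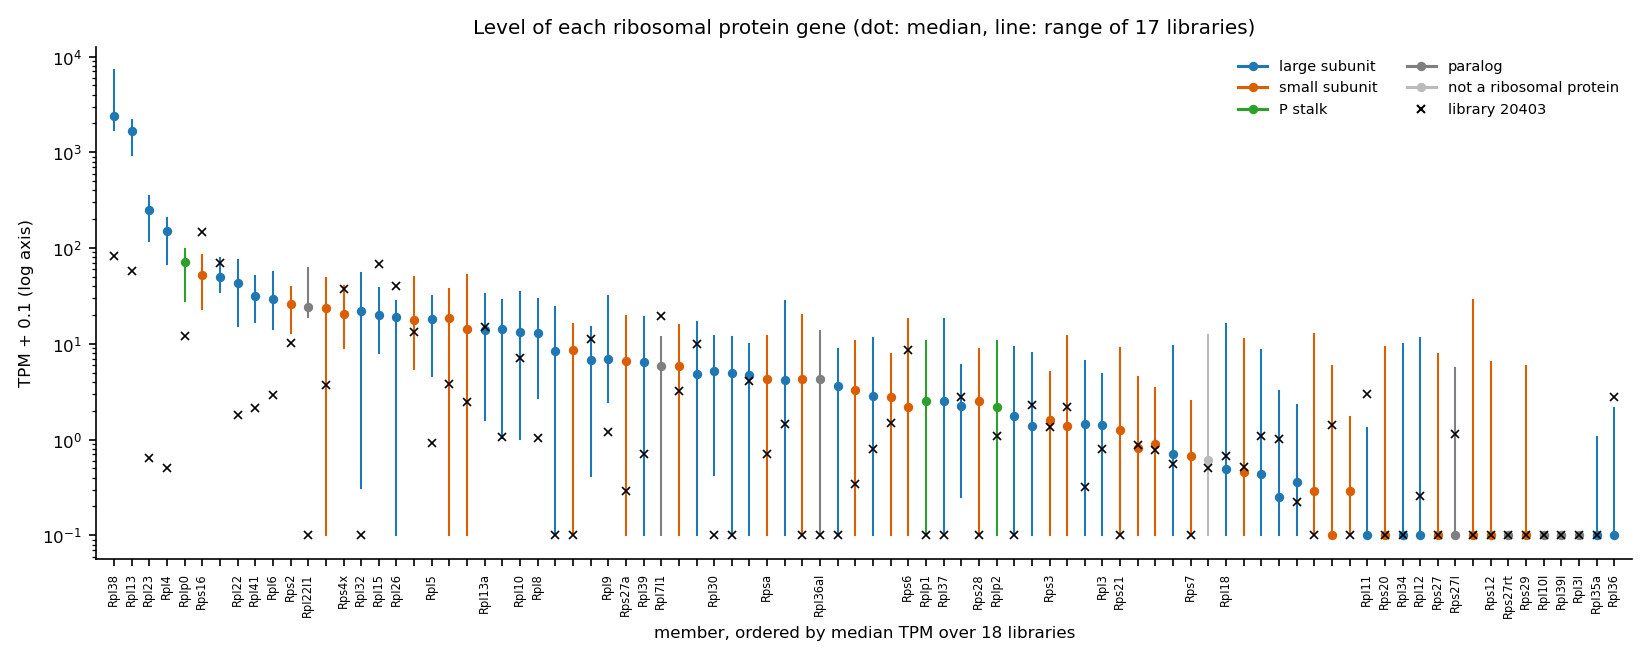
Level of each of the 86 members, in order of median TPM. Dots and lines give the median and range of 17 libraries in TPM + 0.1 on a log axis, coloured by role, and crosses give library 20403; a selection of members is named. Rpl38 and Rpl13 stand above all other members, and most members lie below 10 TPM with ranges that reach 0.

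Among large-subunit genes, 15 of 43 had 10 or more reads in at least 17 libraries. Rpl38 had the highest median, 2346 TPM. It encodes a small surface protein known for its part in translating Hox mRNAs during axial patterning. Rpl13 followed at 1665 TPM, Rpl23 at 251 TPM and Rpl4 at 149 TPM. Rpl23 is known for binding the p53 regulator Mdm2, and Rpl4 for a loop that lines the exit tunnel of the nascent chain. Among the lower genes were Rpl22 at 43.1 TPM, Rpl41, which encodes the smallest ribosomal protein, at 30.5 and Rpl6 at 29.1.

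Other large-subunit genes were low. Rpl32 and Rpl13a, both common reference genes, had medians of 21.8 and 13.8 TPM, and Rpl8, which lies near the peptidyl transferase centre, had 12.2. Rpl3, which also reaches towards that centre, had 1.0 TPM and 10 or more reads in 9 libraries. Rpl5 and Rpl11 bind the same ribosomal RNA and act together on Mdm2. Rpl5 had a median of 17.005 TPM, whereas Rpl11 had a median of 0 and reached 10 reads only in library 20403. Rpl35a and Rpl36 reached 10 reads in no library.

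The small-subunit genes were lower and more even, with 7 of 31 at 10 or more reads in at least 17 libraries. Among their higher medians were 55.0 TPM for Rps16, 25.9 for Rps2 and 21.8 for the X-linked Rps4x. Rps27a, made as a fusion with ubiquitin, had 6.32 TPM. Rpsa, also known as the laminin receptor precursor, had 3.96, and Rps6, the substrate of the S6 kinases, had 2.45. Rps3, which lines the channel where mRNA enters, had 1.38 TPM. Rps20, Rps27 and Rps29 had medians of 0, with 10 or more reads in 4, 1 and 3 libraries. Rps12 had reads in 1 library only, at 6.36 TPM.

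The summed level of the 31 small-subunit genes was 191 to 311 TPM outside library 20403, with a median of 256. The 43 large-subunit genes summed to 4062 to 8670 TPM, with a median of 4858. Without Rpl38, Rpl13, Rpl23 and Rpl4 the large-subunit sum was 259 to 468 TPM, with a median of 395. The gap between the subunits thus came largely from 4 genes.

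In the P stalk, Rplp0, the scaffold that binds the ribosome, was high, and the pair of acidic proteins that it carries was not. Rplp0 had a median of 69.4 TPM and 10 or more reads in 18 libraries. Rplp1 and Rplp2 had 2.37 and 2.08 TPM, and reached 10 reads in 8 and 6 libraries. Transcript lengths, as defined below, were 499 and 445 nt for Rplp1 and Rplp2 and 1036 nt for Rplp0.

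Among the paralogs, Rpl22l1 and Rpl7l1 were found in 17 libraries each. Rpl22l1, the paralog of Rpl22, had 24.1 TPM, and Rpl7l1 had 5.90. Rpl36al had 3.67 TPM, and Rps27l had a median of 0. Rpl3l, known from striated muscle, Rpl10l and Rpl39l, known from testis, and Rps27rt had no read in any of the 18 libraries. A count of 0 allows up to 0.229 CPM in the library where this limit is highest, for counting error only.

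The 4 highest members were examined library by library. Rpl38 was at 2986, 1942 and 7195 TPM in the 22-month EDA-labelled libraries, in replicate order. In the 22-month controls it was at 2397, 3132, 2294, 1873 and 6263 TPM. At 12 months it was at 2151, 2198, 2559.9, 81.9 and 2740.45 TPM in EDA-labelled libraries, and at 2051, 2250.03, 5010.2, 2497 and 1722 TPM in controls. A high library stood out in 3 of the 4 groups, library 20403 was low, and all groups overlapped.

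The 3 libraries with most Rpl38 were among the 4 with fewest genes detected. The 22-month EDA-labelled replicate 3 had 9703 genes at 10 or more reads, the 12-month control replicate 3 had 10376 and the 22-month control replicate 5 had 10631. The fourth, the 22-month control replicate 2, had 10575 genes and ranked 4 for Rpl38. Library 20403 ranked 5 for fewest genes, with 11270, and last for Rpl38. This order was noticed after the values were seen, and the part of depth or RNA quality in it was not tested.

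Rpl13 did not follow Rpl38. It was at 1648, 2046 and 932 TPM in the 22-month EDA-labelled libraries and at 1448, 1111, 1695, 2122 and 1527 TPM in the 22-month controls. At 12 months it was at 1843, 1887, 2166, 57.6 and 1732 TPM in EDA-labelled libraries, and at 1258, 1517, 2026, 1681 and 1473 TPM in controls. Its lowest value outside library 20403 was in the 22-month EDA-labelled replicate 3, where Rpl38 was highest. The 2 genes together held 56.1% to 80.8% of the family's reads in the 17 other libraries, and 13.2% in library 20403.

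Rpl23 ranged from 119 to 348 TPM outside library 20403, where it was at 0.54 TPM. Rpl4 ranged from 67.3 to 206 TPM, and was at 0.41 TPM there. With Rpl38 and Rpl13, these genes took 72.8% to 88.6% of the family's reads in the 17 libraries, and 13.4% in library 20403.

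**Figure D2:**
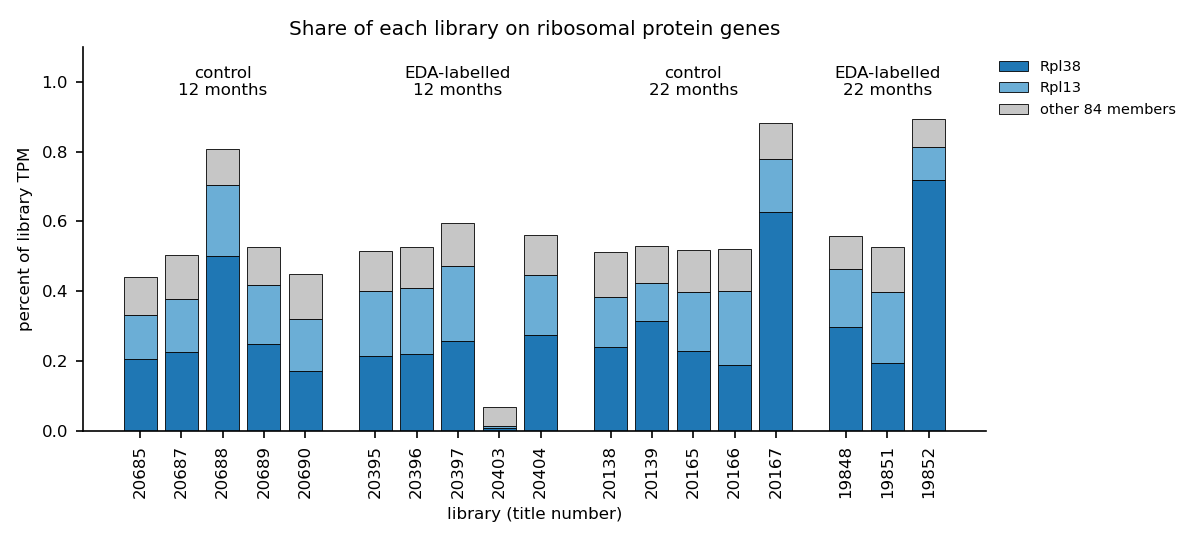
Share of the TPM of each library on the members, in percent, for the 18 libraries by title number and group. Stacked bars give Rpl38, Rpl13 and the 84 others. Rpl38 sets the 3 tall bars, and library 20403 has a total of 0.0665%.

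The family as a whole took 0.18% ± 0.0416 of reads in 12-month controls (SD, n = 5) and 0.15% ± 0.0664 in 12-month EDA-labelled libraries (SD, n = 5). At 22 months it took 0.186% ± 0.0329 in controls (SD, n = 5) and 0.213% ± 0.0564 in EDA-labelled libraries (SD, n = 3). Without library 20403 the 12-month EDA-labelled value was 0.179% ± 0.0142 (SD, n = 4). The groups overlapped, and their means differed by less than the largest SD. Without the 4 highest genes the share was 0.0308% to 0.043% in the 17 libraries and 0.0289% in library 20403. The other 82 members together thus varied far less between libraries than the 4.

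Most of these reads came from coding isoforms, by the isoform types of GENCODE M21. Coding isoforms held 89.6% to 94.0% of the family's reads outside library 20403, and isoforms with a retained intron held 2.07% to 3.63%. The main Rpl13 isoform (ENSMUST00000000756, 780 nt) had a median of 10473 reads there, and the main Rpl38 isoform (ENSMUST00000106602, 371 nt) had 4428. Rpl23 differed: its leading isoform was annotated as a processed transcript without a coding frame (ENSMUST00000151118, 728 nt, 1041 reads), ahead of the coding isoform (ENSMUST00000103146, 1059 nt, 600 reads). Isoform reads are divided by estimation, so these shares are estimates.

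Detection was weakly related to transcript length. Length here is the median of the deposited gene length over the libraries where the gene has reads, or over all libraries where it has none. The deposited length follows the isoforms to which reads were assigned, so it rests in part on the same reads as detection. Across the 86 members, transcript length and the number of libraries with 10 or more reads had a Spearman rho of 0.24. Across all 21928 protein-coding genes rho was 0.31. The members share the same libraries and their depth, so both values describe these data only.

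Of the 20 members up to 500 nt, 6 (30.0%) had 10 or more reads in at least 9 libraries, against 8.89% of 630 protein-coding genes of that length. From 500 to 750 nt it was 24 of 35 (68.6%) against 25.1%, and from 750 to 1000 nt 13 of 18 (72.2%) against 36.1%. From 1000 to 1500 nt it was 3 of 7 (42.86%) against 42.98%. Above 1500 nt it was 5 of 6 (83.3%) against 58.4%. Members were thus found more widely than protein-coding genes of their length in 4 of the 5 classes, and not from 1000 to 1500 nt. Members were chosen by name, and this difference carries no test.

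**Figure D3:**
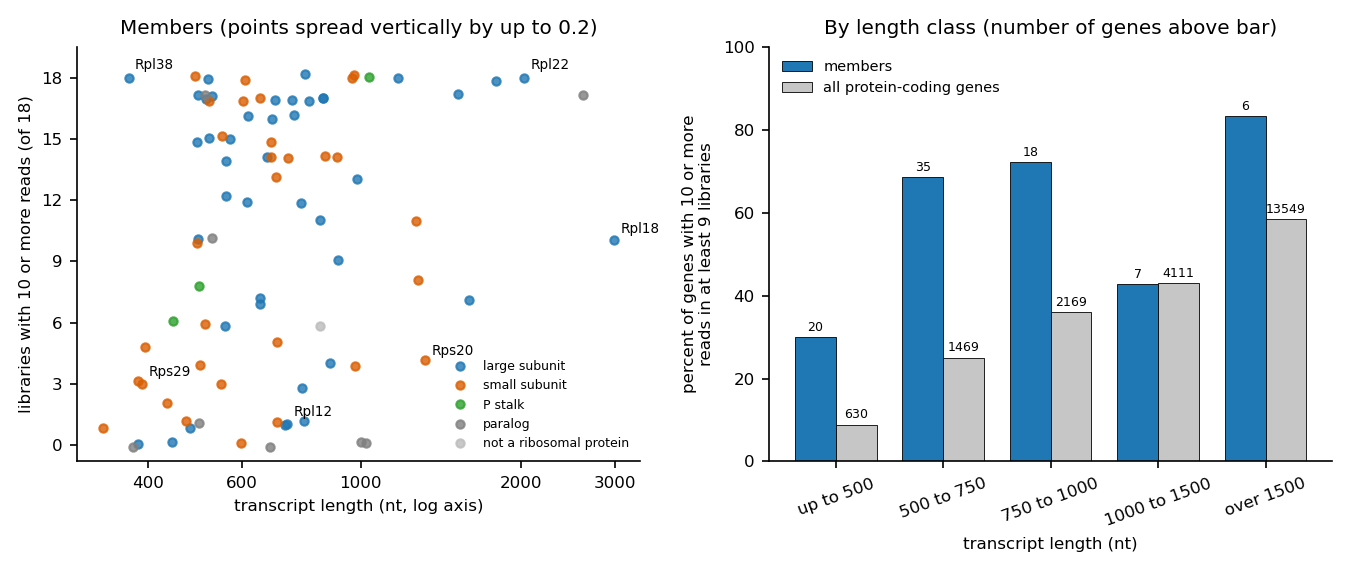
Left, number of libraries with 10 or more reads for each member against its transcript length in nt on a log axis, coloured by role. Right, percent of genes with 10 or more reads in at least 9 of 18 libraries by length class, for members and for all protein-coding genes. By this length Rpl38 is short and found in all libraries, and Rps20 and Rpl18 are long and found in 4 and 10.

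Length did not order the members closely. Rpl38 is 368 nt long and had the highest level of all. Of the other short members, Rps28 at 382 nt, Rps29 at 390 nt and Rps21 at 394 nt reached 10 reads in 3, 3 and 5 libraries. Rpl41, at 497 nt, was found in 17 libraries, while Rps27, at 329 nt, was found in 1. In the middle range, Rpl12 at 729 nt and Rps7 at 697 nt reached 10 reads in 1 library each. Rpl39 at 612 nt reached 10 reads in 12 libraries, and Rpl37 at 648 nt in 7. Rps20, at 1321 nt, was found in 4 libraries, and Rpl18, at 2989 nt, in 10 at a median of 0.43 TPM. The length of Rpl18 depends on the isoform assigned: its unweighted mean isoform length is 773 nt and its coding length 564 nt.

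Ribosomal protein genes have many near-identical copies in the genome, which counting can confuse. Of each member's 75-base windows, a median of 34.9% occurred also in another annotated gene, and in 26 members it was over 50%. Of the members' values, 26.9% were not whole numbers, against 3.59% over all genes, because RSEM divides reads that match several places. The shared part had a rho of 0.092 with the number of libraries and 0.069 with median TPM, and GC content 0.096 and 0.12. The 300 genes with "-ps" in their symbol held 0.001% to 0.0139% of reads. Copies under other names were not counted, so this is not the share of all such copies. Values of members with much shared sequence, such as Rpl13 (79.6% of windows), Rpl10 (84.9%) and Rpl36a (84.6%), are therefore uncertain. Rpl4 (8.47%), Rpl22 (1.42%) and Rpl38 (36.3%) share less.

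Library 20403 differed in the family's make-up more than in its depth. It held 13518167 expected counts, and 4513 of them fell on members, which is 0.0334% (95% exact interval 0.0324% to 0.0344%, counting error only). In the other 17 libraries the share was 0.135% to 0.278%. In it 26 members had 10 or more reads, against 36 to 57 elsewhere, and 28 members had none, against 12 to 32 elsewhere.

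The lower values were mostly those of large-subunit genes of high level. Of the 8 members with a median of at least 20 CPM, 6 were more than 4-fold below the lowest other library: Rpl13, Rpl38, Rpl23, Rpl4, Rpl22 and Rpl6. Of all 4311 genes at that level, 17.2% were. Rpl38 was at 81.9 TPM against a median of 2397 in the others, 29.3-fold lower. Rpl13 was at 57.6 TPM against 1681, 29.2-fold lower. Rpl23 had 3 reads and Rpl4 had 6, in CPM 516-fold (95% exact Poisson interval 177 to 2502) and 339-fold (156 to 923) below the median of the others.

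In all, 15 of 86 members were below every other library in TPM (17.4%), as were 8.92% of all protein-coding genes. A gene at 0 in another library cannot lie below it. Of the 25 members with reads in all 17 others, the 15 were 60.0%, against 26.9% of the 7267 protein-coding genes with reads in all 17. Rpl22 was at 1.71 TPM, where the others had 15.4 to 75.6. Rpl41 was at 2.05 TPM against 16.7 to 50.9, and Rpl6 at 2.84 against 14.2 to 56.7. Rplp0, which is in the stalk, was at 12.0 TPM against 27.8 to 96.9. Rpl22l1, Rpl32 and Rpl30 had no read. Against a limit of 3 counts in this library, Rpl22l1 was at least 27.3-fold lower than the median of the others, and Rpl32 at least 27.1-fold. Rpl32 and Rpl30 also came down to 0.21 and 0.33 TPM in another library, so they stand barely apart. Rpl5, Rpl8, Rpl9 and Rps2 complete the list. Rps2 is the only small-subunit gene in it, at 10.2 TPM against 13 to 39.5.

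Another 6 members were above every other library (6.98%, against 9.89% of all protein-coding genes). Rps16 was at 146 TPM, where the others had 22.8 to 84.01, and Rpl15 was at 68.1 TPM against 7.82 to 38.3. Rpl26 was at 40.1 TPM against 0 to 28.2, and Rpl7l1, a paralog of Rpl7, at 19.45 against 0 to 11.7. Rpl11 had 20.9 reads and Rpl36 had 7, and both were at a median of 0 elsewhere. In other libraries up to 7 members were below all others and up to 10 above, so 15 below was the highest count of its kind and 6 above was not.

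The small-subunit sum in library 20403 was 237 TPM, within the range of the others, whereas the large-subunit sum was 394 TPM against at least 4062. Without Rpl38, Rpl13, Rpl23 and Rpl4 the large-subunit sum was 253 TPM, against 259 to 468. Rps16 was the highest small-subunit gene there, followed by Rps4x at 37.7 TPM, within the range of 9.02 to 39.9.

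**Figure D4:**
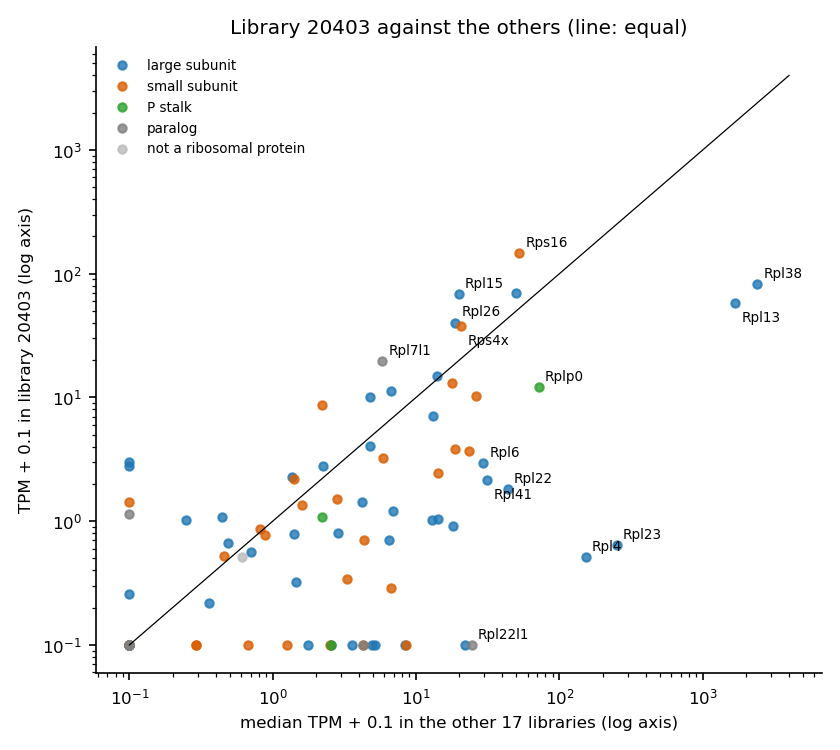
Level of each of the 86 members in library 20403 against the median of the other 17 libraries, both as TPM + 0.1 on log axes, coloured by role, with a line where both are equal. Rpl38, Rpl13, Rpl23 and Rpl4 lie far below the line, and Rps16, Rpl15 and Rpl7l1 lie above it.

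The isoforms differed as well. Retained-intron isoforms held 17.3% of the family's reads in library 20403 (95% exact interval 16.2% to 18.4%), against at most 3.63% elsewhere, and coding isoforms held 78.6%. Most of this was Rps16, whose 2 leading retained-intron isoforms (ENSMUST00000155805 and ENSMUST00000152918) had 366 and 225 reads there, and medians of 139 and 40.5 reads elsewhere. The family's total was 4513 reads in library 20403 and 23202 in the 12-month EDA-labelled replicate 1, whose retained-intron share was 3.33%. The higher share was thus taken of a much smaller total, and does not show more retained-intron reads over the family. A retained-intron isoform of Rpl13 (ENSMUST00000132275) had 0 reads in library 20403 and a median of 269 elsewhere. The higher counts of Rpl15, Rpl7l1 and Rpl26 lay in coding isoforms, with 1100, 492 and 161 reads against 347, 145 and 64.

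Fau and Rack1, outside the rule, were also below every other library. Fau, a fusion of a ubiquitin-like domain with a small-subunit protein, was at 2.79 TPM in library 20403 and at 49.4 to 218 elsewhere. Rack1, a scaffold on the small subunit, was at 2.43 TPM against 23.9 to 93.7. Astrocyte markers took 4.16% of reads in this library and 0.907% to 1.68% elsewhere. The list was split, however: of the 10 markers, 4 lay above every other library and 3 below. Of all protein-coding genes 9.89% lay above and 8.92% below.

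Other genes of translation were mixed in library 20403. Initiation factors took 0.152% of its reads, within the 0.144% to 0.215% of the others, and elongation and release factors 0.127%, within 0.0633% to 0.138%. Genes of ribosome assembly took 0.0615%, within 0.0506% to 0.0756%. Genes of TOP mRNA control took 0.133%, above the 0.0473% to 0.0916% of the others, and genes of ribosome stalling and stress sensing took 0.0287%, below the 0.0466% to 0.0837% of the others. Single genes also lay below every other library: 5 of 36 initiation factors, 3 of 12 elongation and release factors and 6 of 43 genes of assembly. About as many lay above every other library: 5, 4 and 5 in the same order. Of all protein-coding genes 8.92% lay below and 9.89% above. Eef1d, a subunit of the elongation factor 1 complex, was at 2.18 TPM against 287 to 856, and Eif3k, a subunit of initiation factor 3, was at 1.19 against 43.4 to 179. These 2 were chosen after their values were seen. Low values, and high ones, were thus not limited to ribosomal protein genes. The part of cell makeup, RNA quality or sample handling in the low values was not tested.

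The design implies a comparison of the EDA and control labels at each age, of the ages within each label, and of the genotype difference between ages. Counts were compared with edgeR's quasi-likelihood test over all genes, and 15118 genes passed its filter on low counts. Of the 86 members 69 passed, and the 17 that did not were too low to test. Values of members in a comparison are log2 fold changes ± SE. Median shifts over the members are descriptions, since members share libraries and are not replicates.

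At 22 months no member differed between EDA-labelled and control-labelled libraries at an adjusted p under 0.05 by edgeR (0 of 69; 0% of all genes were called). Unadjusted, 1 member passed 0.05, against 3.96% of all genes. DESeq2 called 0 members and 0.248% of all genes, and limma voom 0 members and 0.00661% of all genes. The members' median was -0.29 and that of all genes -0.07, and 26 of 69 lay above 0, against 46% of all genes. With the log2 share of the identifier without symbol as covariate, the members' median was 0.27 and 43 of 69 lay above 0. The member that passed unadjusted was Rps19bp1, the binding partner of Rps19, at 4.92 ± 2.09 (edgeR, adjusted p = 1). It had 0, 22 and 106 reads in the EDA-labelled libraries and 0, 0, 0, 9 and 0 in the controls. Without the library of 106 reads, replicate 3, the change was 2.69 and did not pass an unadjusted 0.05.

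Among members of at least 2 log2 CPM, those with the smallest p were Rps16 at 0.78 ± 0.47 and Rpl10 at 1.07 ± 0.82 on the high side. On the low side they were Rpl6, at -0.81 ± 0.58, and Rplp0, at -0.59 ± 0.50. Rps16 was at 76.0, 67.2 and 74.3 TPM in EDA-labelled libraries and at 44.3, 24.4, 48.3, 47.5 and 60.2 TPM in controls. On the TPM scale these groups did not overlap, but they did after TMM scaling, where no member separated the groups in either direction. After that scaling 1.32% of all genes lay wholly higher and 2.16% wholly lower. The share of all genes that separate in TPM was not counted.

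At 12 months no member differed between the labels by edgeR (0 of 69; 0% of all genes called), 1 passed an unadjusted 0.05 (4.56% of all genes). DESeq2 called 0 members and 0.147% of all genes, and limma voom 0 members and 0.0132%. The median was -0.47 against -0.01 for all genes, with 21 of 69 above 0 against 49.5%. Library 20403 is in the EDA-labelled group here. Without it the members' median was -0.24, 26 of 69 lay above 0 and 0 were called (1 of all 14961 genes was). With the covariate the median was -0.01, and with limma voom -0.12.

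The member past an unadjusted 0.05 was Rps20, at 4.66 ± 2.23 (edgeR, adjusted p = 1). It had 52 reads in replicate 3 of the EDA-labelled libraries and 0 in the other 4, and 1 read in a single control. Without that replicate the value was -1.38. Among members of at least 2 log2 CPM, the smallest p on the low side were those of Rpl6 at -0.95 ± 0.49, Rpl9 at -1.34 ± 0.82 and Rpl22l1 at -1.24 ± 0.80. On the high side they were those of Rps16, at 0.63 ± 0.42, and Rpl15, at 0.56 ± 0.44, which was 0.11 without library 20403. In library 20403 Rpl6, Rpl9 and Rpl22l1 lay below every other library, at 2.84, 1.1 and 0 TPM, and Rps16 lay above. Fold changes of Rpl6, Rpl9, Rpl22l1 and Rps16 without library 20403 are not given here. Rpl22l1 was at 23.2, 19.1, 26.3, 0 and 28.3 TPM in EDA-labelled libraries and at 36.5, 27.1, 60.3, 37.1 and 19.6 TPM in controls. Its value of 0 is library 20403, and the other values of the groups overlap. No member had groups that did not overlap (0.84% of all genes were wholly higher and 0.423% wholly lower).

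Between 12 and 22 months in control-labelled libraries no member differed by edgeR (0 of 69; 0% of all genes called), 1 passed an unadjusted 0.05 (3.51% of all genes). DESeq2 called 0 members and 0.154% of all genes, and limma voom 0 members and 0%. The median was -0.07 against 0.02 for all genes, and 27 of 69 lay above 0 against 51.6%. Without the 12-month control replicate 2 it was 0.004. The member was again Rps20, at 5.46 ± 2.32 (edgeR, adjusted p = 1). It had 51.4 reads in replicate 5 at 22 months and 0 to 9 in the others, and without that library the value was 3.57 and did not pass an unadjusted 0.05. Rpl6 was at 0.54 ± 0.49 and Rpl8 at -0.97 ± 0.71. No member had groups that did not overlap (0.351% of all genes wholly higher and 0.205% wholly lower).

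Between 12 and 22 months in EDA-labelled libraries no member differed by edgeR (0 of 69; 0% of all genes called), 2 passed an unadjusted 0.05 (4.98% of all genes). DESeq2 called 0 members and 0.304% of all genes, and limma voom 0 members and 0%. The median was 0.19 against -0.06, with 37 of 69 above 0 against 46.9%. Without library 20403 the median was -0.06 and 30 of 69 lay above 0, with limma voom it was -0.17, and without the 22-month EDA-labelled replicate 2 it was -0.30.

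Rpl37, a zinc-finger protein of the large subunit, was at 4.69 ± 1.66 (edgeR, adjusted p = 0.961). It had 20, 9 and 155 reads at 22 months and 8, 1, 7, 0 and 0 reads at 12 months. It was the 1 member whose groups did not overlap after TMM scaling, wholly higher at 22 months, as were 1.76% of all genes, and 0 members were wholly lower (2.72% of all genes). In TPM they overlapped, at 2.81, 2.43 and 18.1 against at most 2.46. Without replicate 3 at 22 months its value was 2.21 and did not pass an unadjusted 0.05.

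Rpl38 was at 1.71 ± 0.73 (edgeR, adjusted p = 0.961). Its value was 1.40 without library 20403 and 0.35 without replicate 3 at 22 months, and with both left out it was 0.03. The difference thus rested on a low library at 12 months and a high one at 22 months.

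The genotype difference at 22 months did not differ from that at 12 months for any member by edgeR (0 of 69; 0% of all genes called). Unadjusted, 0 members passed 0.05, against 4.02% of all genes. DESeq2 called 0 members and 0.252% of all genes, and limma voom 0 members and 0.00661%. The median was 0.22 against -0.07, with 38 of 69 above 0 against 47.2%, and 0.13 without library 20403. It turned to -0.12 with limma voom and to -0.18 without the 22-month EDA-labelled replicate 2. Rpl38 was at 1.41 ± 0.97 and Rpl8 at 1.19 ± 1.07. Both genes lay below every other library in library 20403, at 81.9 and 0.93 TPM, and their values without it are not given here.

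**Figure D5:**
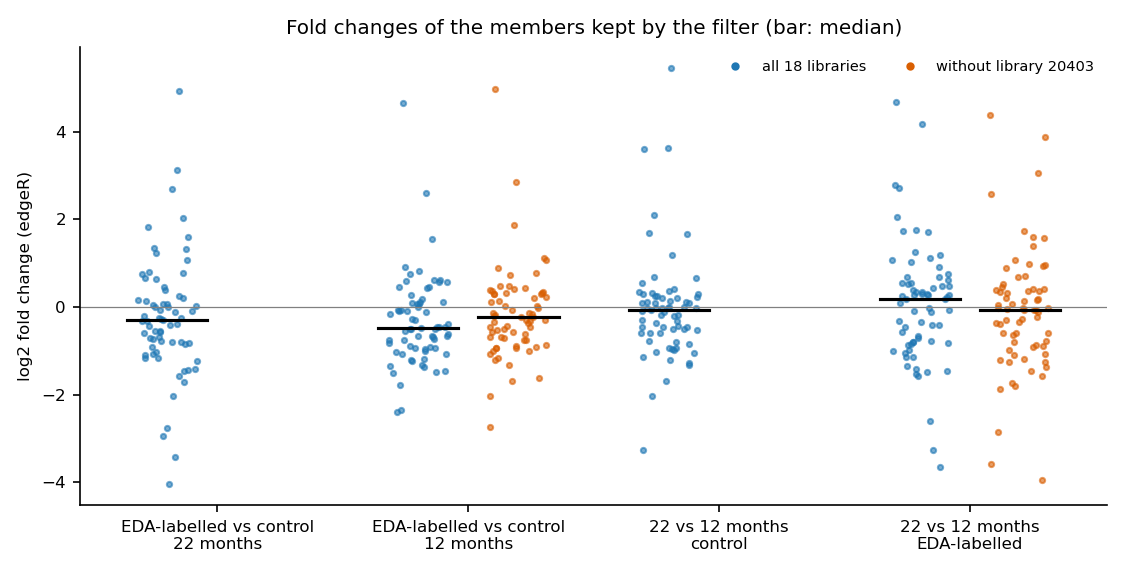
Log2 fold change of each member kept by the filter in 4 comparisons (edgeR), with all 18 libraries and, where library 20403 takes part, without it. Points are members and bars are medians. The median moves from -0.47 to -0.24 for the labels at 12 months and from 0.19 to -0.06 for age in EDA-labelled libraries.

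By role, the large-subunit genes had medians of -0.29 (labels at 22 months), -0.46 (labels at 12 months), -0.03 (age, controls) and 0.25 (age, EDA-labelled), over 37 genes. The 25 small-subunit genes had -0.32, -0.51, -0.03 and -0.10. Members with a median of at least 10 TPM, 25 genes, had -0.06, -0.47, -0.03 and 0.25. Without library 20403 the labels at 12 months gave -0.23 for the large subunit, -0.32 for the small subunit and -0.20 for members of at least 10 TPM. Age in EDA-labelled libraries then gave -0.05, -0.28 and -0.02, so the sign turned for the large subunit and for the higher members. No role had a member called in any comparison.

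Other genes of translation, in lists by function, were also without calls by edgeR in all comparisons. Of 36 initiation factors, 12 lay above 0 for the labels at 22 months and 13 at 12 months, with medians of -0.18 and -0.05. Eif4b, which assists the helicase that unwinds mRNA, had the smallest p of this list, 1.12 ± 0.40 for age in controls (edgeR, adjusted p = 1). Of 42 tested genes of ribosome assembly and rRNA synthesis, 15 and 12 lay above 0, with medians of -0.38 and -0.52. Among these, Ubtf, a factor of RNA polymerase I, was at 0.89 ± 0.39 for the labels at 22 months, and Polr1c, a polymerase subunit, was at -1.83 ± 0.80 at 12 months.

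Of 19 genes of the mTORC1 and LARP1 control of TOP mRNAs, 4 lay above 0 at 22 months and 11 at 12 months, with medians of -0.23 and 0.11. Larp1 was at 0.62 ± 0.31 at 12 months (edgeR, adjusted p = 1). Tsc2, an inhibitor of mTORC1, was at -1.33 ± 0.61 for age in EDA-labelled libraries. It was the 1 gene of this list with an unadjusted p under 0.05 there (edgeR). Without the 12-month EDA-labelled replicate 4, 0 genes of this list passed that limit. Of 11 elongation and release factors, 7 and 6 lay above 0, with medians of 0.30 and 0.07. Of 14 genes of ribosome stalling and stress sensing, 4 and 5 lay above 0, with medians of -0.15 and -0.03. At 12 months, leaving out the EDA-labelled replicate 4 turned the sign of the elongation and stalling medians. They became -0.10, with 5 genes above 0, and 0.09, with 8 above 0. The TOP control, assembly and initiation lists kept their sign, with medians of 0.23, -0.36 and -0.07.

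Markers of other cell types differed in direction between some of these comparisons, with 0 called by edgeR. The 10 oligodendrocyte markers all lay below 0 for the labels at 22 months, with a median of -1.50, and all above 0 at 12 months, with a median of 1.08. Of all genes, 46% and 49.5% lay above 0. Each marker had reads in some library. At 22 months the control replicate 3 held 3.05% of reads and the other controls 0.0871% to 0.281%, against 0.0887% to 0.445% in EDA-labelled libraries. At 12 months the EDA-labelled replicate 3 held 2.89% and the others 0.0983% to 0.505%, against 0.0338% to 0.919% in controls. The marker medians were not recomputed without these libraries. Of 12 photoreceptor markers 8 could be tested, and their median was 4.33 for age in controls. Of these, 7 lay above 0 and 4 had an unadjusted p under 0.05 by edgeR, against 51.6% and 3.51% of all genes. Their summed share was 0.272% of reads in the 22-month control replicate 2 and 0.0007% to 0.0106% in the other libraries. Arr3 was at 0 in every library. Their part in the members' values was not tested.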

How the data were processed

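Laser-captured optic nerve head tissue was sequenced with a SMART-Seq v4 and Nextera XT protocol, which does not keep strand, per the labels' protocols. The authors aligned with STAR and counted with RSEM, per the labels' protocols, to build GRCm39, per the submitters' processing notes. No source used here gives tool versions or the annotation. The deposited tables hold expected counts and TPM per gene and per isoform. Symbols, biotypes and isoform types came from GENCODE M21 (GRCm38), which named 52135 of 55416 identifiers, and start windows from RefSeq GRCm38.p6. The RefSeq symbols Rpl37rt, Rps23rg1 and Rpl32l were not paired with identifiers.

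Expected counts were rounded and fitted with edgeR 4.0.16 (quasi-likelihood, TMM, filterByExpr, robust) in R 4.3.3, with a mean per group over 18 libraries and Benjamini-Hochberg adjustment over 15118 genes at 0.05, two-sided. DESeq2 1.42.0 and limma 3.58.1 (voom with quality weights) were alternatives. Adjusted p-values and log2 fold changes are from these fits, not from the deposited files. On data simulated from the 12-month label comparison (14285 genes), edgeR found 34% of 4-fold and 72% of 8-fold changes, with 1 false call. Changes were planted only in genes whose average reached 2 log2 CPM. Over all 18 libraries, 26 of the 69 tested members reached that level. The percentages therefore do not cover the lower members, for which the share found was not measured.

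Detection means 10 or more expected counts. Exact (Clopper-Pearson or Poisson) 95% intervals and the limit of 3 counts for a count of 0 cover counting error only, since the reads carry no molecular identifiers. No replicate pair was alike within sampling noise, with a chi-square per degree of freedom of at least 39.2. Named members were those of a list by role, those with the highest and lowest levels, and up to 4 per direction with the smallest p in each comparison at a mean of at least 2 log2 CPM. Members named for standing apart in library 20403, for their length or for an unadjusted p, and the stretches shown, were chosen after their values were seen. Some genes are not reported here. Members and gene lists were chosen with earlier results of these data known.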

Additional observations from a re-analysis of the deposited data

Results flagged for a closer look

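Within the groups of 5 libraries, the gap between the highest or lowest library and the next was set against the range of the group (Dixon's limit at 95%). The 22-month EDA-labelled group, with 3 libraries, was not examined, so its replicate 3 could not be flagged. Of 54 measures by group, 15 passed the limit, 8 of them in the 12-month EDA-labelled replicate 4 (title number 20403). Chance gives about 1 in 20 for a single measure chosen beforehand. These measures overlap and were chosen with earlier results known, so 15 of 54 cannot be set against that rate. In that replicate the family's share was 0.0334% of reads, against 0.163% to 0.196% in the other 4, and 0.0665% of TPM, against 0.516% to 0.595%. It had 26 members with 10 or more reads, against 52 to 57. Retained-intron isoforms held 17.3% of the family's reads there, a total of only 4513, against 2.81% to 3.63%. Rpl38 was at 81.9 TPM, against 2151 to 2740.45. Rpl13 was at 57.6 TPM, against 1732 to 2166, Rplp0 at 12.0, against 64.3 to 84.4, and Rpl22 at 1.71, against 42.7 to 55.7.

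The 22-month control replicate 5 was high in the family's share of reads, at 0.243% against 0.16% to 0.182%, and of TPM, at 0.883% against 0.513% to 0.53%. There Rpl38 was at 6263 TPM, against 1873 to 3132, and Rpl22l1 at 61.4 TPM, against 20.9 to 23.9. In the 12-month control replicate 3 the share of TPM was 0.806%, against 0.441% to 0.526%, and Rpl38 was at 5010.2 TPM, against 1722 to 2497. Rps2 was at 20.6 TPM in the 12-month control replicate 4, against 25.5 to 26.4.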

How the results depend on the processing

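In all planned and added alternatives, other scalings, filters, tools and left-out libraries included, 0 members were called. Over all genes, edgeR called at most 1 gene in any comparison of these, DESeq2 at most 43 and limma voom at most 2. The 0 therefore says little about the members in particular. With the log2 share of the identifier that has no symbol as covariate, the members' median for the labels at 22 months turned from -0.29 to 0.27, and the cause was not tested. Leaving out a library moved the medians between -0.59 and -0.24 (labels, 22 months), -0.64 and -0.24 (labels, 12 months), -0.25 and 0.00 (age, controls), -0.30 and 0.24 (age, EDA-labelled) and -0.18 and 0.34 (difference of differences). With limma voom the last pair were -0.17 and -0.12.

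Shares of reads without the 4 highest members were 0.0347%, 0.0349%, 0.0361% and 0.0361% (EDA-labelled 12 and 22 months, controls 12 and 22 months). Over all members, the share without that identifier in the total was 0.225% and 0.238% in controls of 12 and 22 months, and over protein-coding genes 0.236% and 0.25%. Shares of protein-coding TPM were 0.711%, 1.05%, 0.984% and 1.06%, in the same order of groups. With 1 read as the limit, 65.0, 63.0, 67.0 and 65.8 members were detected, and with 1 TPM 57.8 and 56.6 in controls. The Spearman coefficient of length with detection was 0.11 with unweighted isoform lengths, 0.13 for median TPM and 0.31 with coding length. Without each library it was 0.23 to 0.25.

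Leaving out a library, the share of reads was 0.139% to 0.179%, 0.181% to 0.232%, 0.164% to 0.191% and 0.172% to 0.193%, in the same order. The share of TPM was 0.417% to 0.549%, 0.543% to 0.727%, 0.48% to 0.571% and 0.52% to 0.613%. Members detected were 46.5 to 54.2, 40.5 to 50, 50.8 to 52.2 and 48.2 to 51.5. Among alternatives that leave out no library, 107 values stayed within the spread between libraries or kept their count, and 22 moved. Coding length came from GENCODE M21, as the planned protein table was not used here. No paired analysis was possible because the labels give no replicate numbers shared between groups.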
